A study of Mus musculus with 4 samples.

Results

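The cluster of miR-322, miR-503, miR-351, miR-542 and miR-450 is a group of miRNA genes that lie close together on the mouse X chromosome. Its members were taken here as all mouse TaqMan assays named for one of these miRNAs, of any letter and either arm, without the assays for star strands and rat miRNAs. This gave 8 of the 517 mouse miRNA assays, 7 on card A and 1 on card B: mmu-miR-322, mmu-miR-503, mmu-miR-351, mmu-miR-542-3p, mmu-miR-542-5p, mmu-miR-450a-5p, mmu-miR-450a-3p and mmu-miR-450b-5p. The 4 samples were bronchoalveolar stem cells (BASCs), 2 labelled control and 2 c-Myc depleted, and 3 of the 8 assays were well detected in them. These 3, miR-322, miR-503 and miR-351, stood higher in both depleted samples than in both controls, by 0.85 to 1.26 on the log2 scale. The same held for 36.8% of the 174 miRNAs detected on card A, which holds these 3. None of the members' differences passed a test adjusted for all miRNAs.

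BASCs are cells of the junction between the bronchioles and the alveoli that can give rise to the epithelium of both. They came from lungs of ICR mice 4 to 6 weeks old, sorted as CD31 and CD45 negative and CD34 and Sca-1 positive, and were plated on irradiated mouse embryonic fibroblasts, and all 4 samples share this strain and sort. Both these feeders and collagen-coated dishes are described for the established cells, and which applies to the arrayed samples is not stated. By the labels, the depleted cells are stable lines made with a lentiviral shRNA against c-Myc and puromycin selection. The labels do not say which shRNA the depleted samples carried or whether the controls received a vector. The paper calls the group compared with the knockdown wild type, and it also describes a negative control vector. Infection and selection were not tested apart from c-Myc depletion. The labels name 2 replicates per group without saying that these were separate lines. The p-values therefore measure the spread between these samples, which may be technical.

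A miRNA is a short RNA, cut from the stem of a hairpin, that guides silencing proteins to messenger RNAs, mainly by pairing through its seed, the bases near its 5′ end. miRNAs whose hairpins are neighbours are often cut from one long transcript. The rodent miR-322, known in humans as miR-424, and miR-503 belong to the wider miR-15/16 group, which is known for targeting regulators of the cell cycle such as cyclins and their kinases, and the pair has been studied in muscle and vessel cells. c-Myc is a transcription factor that drives proliferation, and the comparison asks how miRNA levels differ when it is depleted.

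The cluster holds 7 hairpins within 6353 bases in the RefSeq annotation of GRCm38.p6, at chrX:53047997-53054349 on the minus strand. In the direction of transcription they follow as Mir322 (chrX:53054255-53054349), Mir503 (chrX:53053984-53054054), Mir351 (chrX:53053255-53053353), Mir542 (chrX:53049403-53049487), Mir450-2 (chrX:53048299-53048367), Mir450-1 (chrX:53048154-53048244) and Mir450b (chrX:53047997-53048078). Gaps of 200 and 630 bases separate the first 3, and 3767 bases separate Mir351 from Mir542. The first 3 hairpins lie within the bounds of the annotated long noncoding RNA gene C430049B03Rik (chrX:53053112-53057190), and the other 4 lie outside it.

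**Figure D1:**
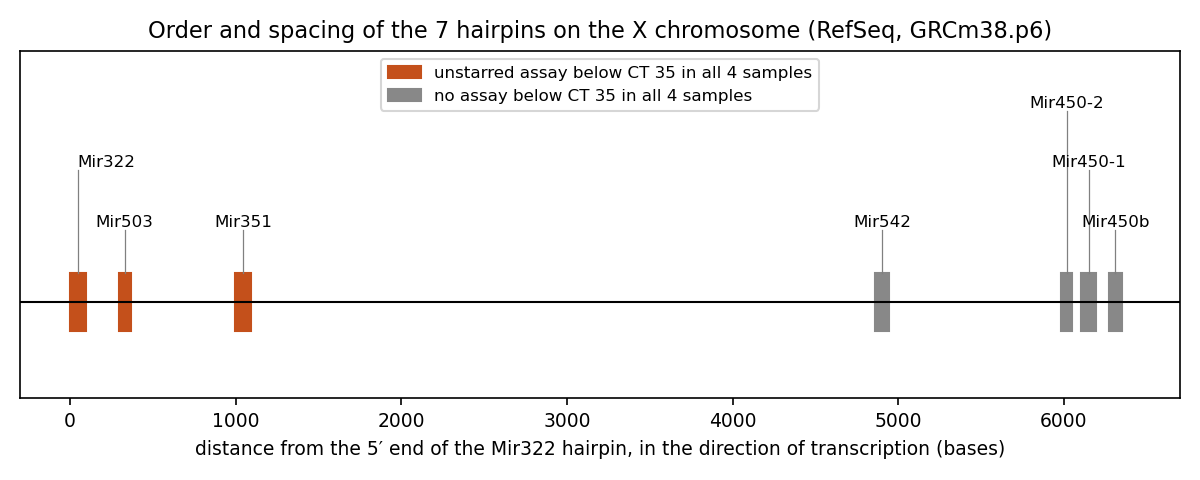
The 7 hairpins of the cluster are drawn to scale along the distance from the 5′ end of Mir322 in bases. The 3 hairpins whose unstarred assay was below CT 35 in all samples (orange) lie together in the first part, and the 4 others (grey) lie beyond a gap of 3767 bases.

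The mature sequences show which members could pair with the same targets. They are from RefSeq (GRCm38.p6), 5′ to 3′, with the seed, bases 2 to 8, in capitals. The deposited table names miR-322, miR-503 and miR-351 without an arm. Both arms are given for miR-322. For miR-503 and miR-351 the 5p arm is given, and that their assays read this arm is an assumption.
miR-322-5p: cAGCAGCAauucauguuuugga
miR-322-3p: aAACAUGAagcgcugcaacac
miR-503-5p: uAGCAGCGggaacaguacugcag
miR-351-5p: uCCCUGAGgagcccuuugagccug
miR-542-5p: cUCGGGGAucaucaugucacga
miR-542-3p: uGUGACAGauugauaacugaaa
miR-450a-5p: uUUUGCGAuguguuccuaauau
miR-450b-5p: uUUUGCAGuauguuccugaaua

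The seed of miR-322-5p is that of miR-15a and miR-16, printed for comparison.
miR-15a-5p: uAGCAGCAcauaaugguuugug
miR-16-5p: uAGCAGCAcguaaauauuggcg
In the RefSeq table this seed is carried by 10 mature miRNAs. That of miR-503-5p matches it over 6 bases from position 2 and then differs, and no other mature miRNA has all 7 bases of it. Outside the seed the relatives diverge: miR-322-5p and miR-503-5p have the same base at 11 of 22 positions compared without gaps, and miR-322-5p and miR-15a-5p at 15 of 22. The seed of miR-351-5p is a different one, shared with miR-125a-5p and miR-125b-5p.
miR-125b-5p: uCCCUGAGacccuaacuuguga
The mature miR-450a-5p is the same from Mir450-1 and Mir450-2, so its assay cannot tell these genes apart. It matches miR-450b-5p over 5 bases from position 2, and their seeds differ after that. The cluster's members thus carry several distinct seeds.

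The arms of Mir322 are shown in capitals within its hairpin of 95 bases, since they were read by separate assays.
Mir322 hairpin: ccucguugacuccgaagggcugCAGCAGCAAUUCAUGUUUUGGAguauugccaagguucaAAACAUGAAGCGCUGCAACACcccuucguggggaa

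Levels were read as threshold cycles (CT), the cycle of the PCR at which a well passes a set fluorescence. RNA that is scarcer passes it later and has a higher CT, and a step of 1 cycle is taken as 1 on the log2 scale. Following the methods of the study, 35 stood for every missing CT and every CT above it, and ΔCT is what remains after subtracting the average of the U6 wells on the card. The log2 difference is the mean ΔCT of the controls minus that of the depleted samples, positive where the depleted samples were higher. On card A, which holds all members that were detected, the U6 mean was between 18.8 and 19.1 in the 4 samples. Of all wells with a CT, 44.2% had a value whose fractional part was 0.9 or more (31.7% to 54.5% per sample), and so did 13 of the 22 CT values of members. CT values of the table therefore lie often just under a whole cycle, for which no cause was tested.

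A CT below 35 in at least 1 sample was found for 5 of the 8 members, and in all 4 samples for 3. Control replicates 1 and 2 had 4 and 3 members below 35, and the depleted replicates had 5 and 4. With the limit at a CT of 32, 3 members were detected, the same 3 that were below 35 in all samples, miR-322, miR-503 and miR-351. These are the 3 members whose hairpins lie first in the cluster.

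**Figure D2:**
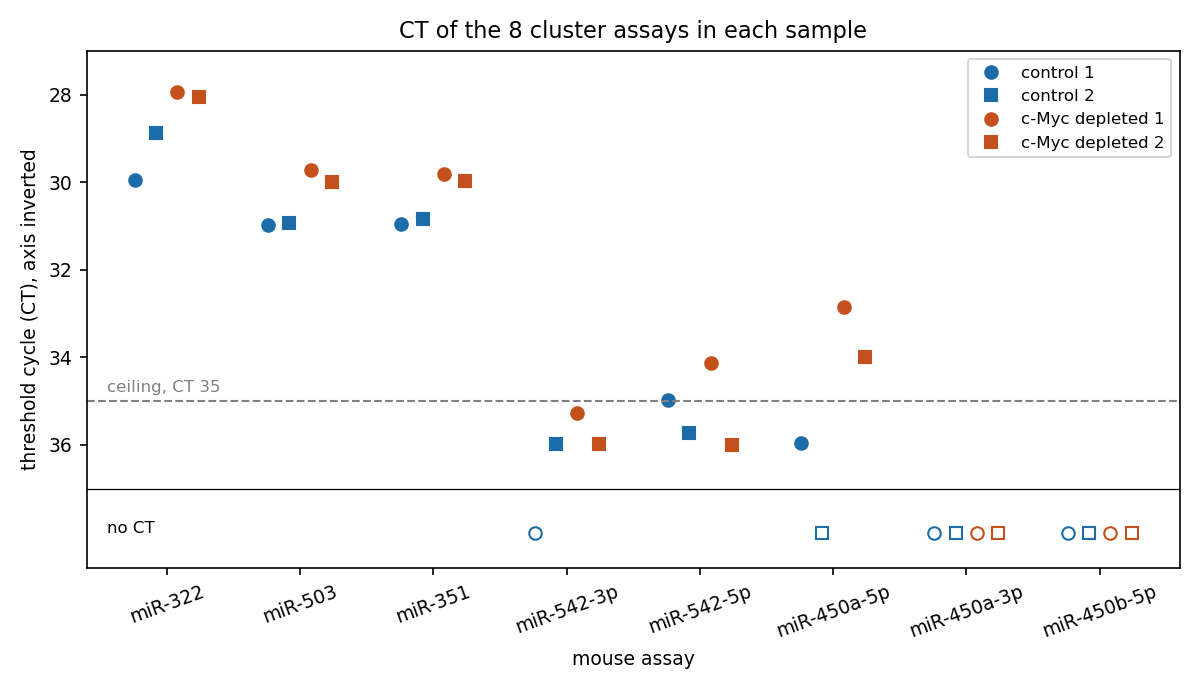
Each point is the deposited CT of a member in one sample (control blue, c-Myc depleted orange, circle replicate 1, square replicate 2), on an inverted axis so that higher points mean more RNA, with open points for wells with no CT. The depleted samples lie above both controls for miR-322, miR-503, miR-351 and miR-450a-5p, and the other members are at or beyond the ceiling of 35 in most samples.

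miR-322, the most abundant member, had control CT values of 29.95 (replicate 1) and 28.87 (replicate 2) and depleted CT values of 27.94 and 28.06. Its control ΔCT was 11.1 and 9.76, on average 10.4 ± 0.915, and its depleted ΔCT was 9.08 and 9.22, on average 9.15 ± 0.101 (SD, n = 2 each). Both depleted samples were higher than both controls, and the controls lay 1.29 cycles apart where the depleted samples lay 0.143 apart. The log2 difference was 1.26, a 2.39-fold higher level, with a standard error of 0.50 and a 95% interval of -0.19 to 2.71 (limma, adjusted p = 0.171 over the 80 miRNAs with a lowest ΔCT below 10).

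The size of that difference rested on the controls. Without control replicate 1 it was 0.61 (adjusted p = 0.0724 from limma), and without control replicate 2 it was 1.90 (adjusted p = 0.0230 from limma), past the threshold. Where 1 control is left, limma assumes that it varies like the other group. Control replicate 1 also differed from the rest in other miRNAs: miR-142-5p and miR-451, typical of blood cells, and miR-200b and miR-429, typical of epithelium, had a CT in that sample alone, of 31.5 to 32.6. These 4 were named after their values were seen, and the same blood list also holds miR-223 and miR-150, whose lowest CT values, 32.68 and 32.96, were those of depleted replicate 2. Their part in the result was not tested.

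miR-503, whose 5p arm shares most of the seed of miR-322-5p, had control CT values of 30.97 and 30.94 and depleted CT values of 29.73 and 29.99. Its ΔCT averaged 12.0 ± 0.174 for the controls and 11.0 ± 0.198 for the depleted samples (SD, n = 2 each). The groups did not overlap, and replicates lay 0.246 (control) and 0.279 (depleted) apart. The log2 difference was 0.94, a 1.92-fold higher level, with a standard error of 0.23 and a 95% interval of 0.27 to 1.62. miR-503 did not pass the ΔCT limit of 10, so its p is from a limma fit over all 263 detected mouse miRNAs, where it was 0.125 after adjustment.

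miR-351, a seed relative of the miR-125 family, had control CT values of 30.96 and 30.83 and depleted CT values of 29.82 and 29.98. Its ΔCT averaged 11.9 ± 0.238 for the controls and 11.0 ± 0.127 for the depleted samples (SD, n = 2 each). These values are close to those of miR-503 in every sample, and again the groups did not overlap. The log2 difference was 0.85, a 1.80-fold higher level, with a standard error of 0.23 and a 95% interval of 0.16 to 1.53 (limma over the 263 miRNAs, adjusted p = 0.144).

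miR-450a-5p, the product of Mir450-1 and Mir450-2, was near the detection limit. Its CT was 35.96 in control replicate 1, absent in control replicate 2, and 32.86 and 33.99 in the depleted replicates. It was thus below 35 in both depleted samples and in neither control, and the depleted samples lay 1.15 apart. Control replicate 1 was above the ceiling and control replicate 2 had no CT, so the log2 difference of 1.42 depends on the ceiling (limma over the 263 miRNAs, standard error 0.48, adjusted p = 0.190). With values above 35 kept and wells with no CT set to 40, a choice made after the data were seen, it was 4.404.

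The 2 arms of Mir542 were at the limit. miR-542-5p had control CT values of 34.97 and 35.73 and depleted CT values of 34.12 and 35.99. The groups overlapped, and the log2 difference of 0.28, with a standard error of 0.39, was smaller than the 0.904 between the depleted samples (limma over the 263 miRNAs, adjusted p = 0.728). miR-542-3p had no CT in control replicate 1 and a CT of 35.98, 35.27 and 35.98 in control replicate 2 and depleted replicates 1 and 2, all above the ceiling. miR-450a-3p, with 2 wells on card B, and miR-450b-5p had no CT in any sample. A well with no CT shows that the level was below what this PCR detects.

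Of the 8 members, 1, miR-322, passed the ΔCT filter, and it was not past an adjusted p of 0.05, where 25.0% of the 80 miRNAs tested were higher past that threshold. In the fit over all 263 detected miRNAs 0 of the 5 detected members had an adjusted p below 0.05 in limma, and only 0.380% of all miRNAs were higher at that threshold. miR-450a-5p was below 35 in the depleted samples alone, and its control values are the ceiling, so it is left out of the counts that follow, which are over the 3 members below 35 in all samples. At an unadjusted p below 0.05 they were 2 of 3 in limma (miR-503 and miR-351), against 16.3% of all 263. By the analysis of variance that the methods name they were 0 of 3 after adjustment and 2 of 3 before it (miR-503 and miR-351), against 12.5%. These shares pool both cards, while the 3 members are on card A. The median log2 difference was 0.28 on card A and -0.51 on card B, so the shares are not matched for card. All 43 miRNAs behind the 16.3% are on card A, so the share among the 174 there is larger. The groups did not overlap for 3 of 3, with the depleted samples higher. That was so for 26.6% of the 263 detected miRNAs and for 36.8% of the 174 on card A. The 263 and the 174 include miRNAs below 35 in only some samples. The shares are therefore not matched for detection to these 3 members. The smallest two-sided p that exact permutation of 2 and 2 samples allows for one miRNA is 0.333.

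These 3 members had a median log2 difference of 0.94, as had the 5 detected ones. The median of all 263 detected miRNAs was -0.02, and that of the 174 detected on card A was 0.28, with 109 above 0. Among the 174, ordered from the highest difference down, miR-322 ranked 15, miR-503 36 and miR-351 48. On card A the difference also went with the level. Leaving out members, the median was -0.10 for the 22 miRNAs with a mean CT below 27, 0.24 for the 48 from 27 to 30, and 0.54 for the 53 from 30 to 33. miR-322 lies in the range from 27 to 30, and miR-503 and miR-351 lie in that from 30 to 33. Above 33, where the ceiling enters, the median of 46 miRNAs was -0.09.

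**Figure D3:**
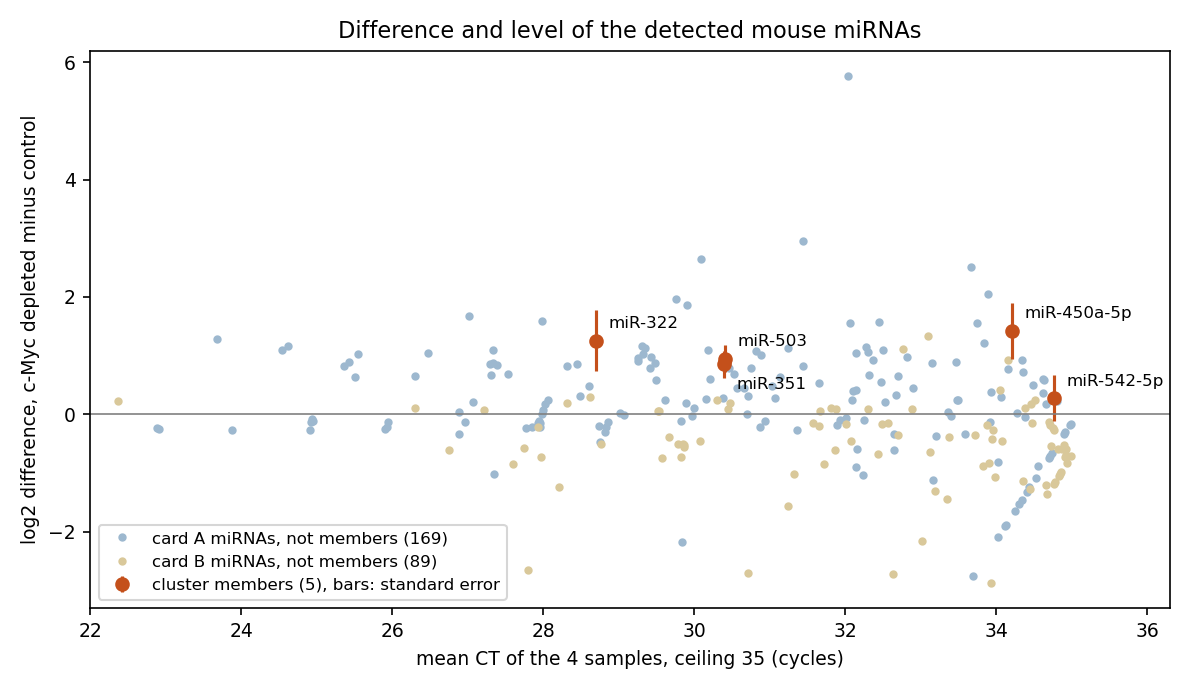
The log2 difference (c-Myc depleted minus control, U6 of the same card) is plotted against the mean CT of the 4 samples for the 263 detected mouse miRNAs, with card A blue, card B tan, and the 5 detected cluster members in orange with their standard errors. The members lie above 0, among many card A miRNAs of like difference, of which 109 of 174 are above 0.

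Because miR-322, miR-503 and miR-351 share card A, the difference between their CT values within a sample does not depend on the reference. miR-351 minus miR-503 was -0.01 and -0.10 cycles in the control replicates, then 0.09 and -0.01 cycles in the depleted ones. The CT values of this pair, whose hairpins are 630 bases apart, thus stayed within 0.102 cycles of each other in every sample. By comparison, the mouse assay and the rat assay named for miR-351, both on card A, differed by 0.14 to 0.84 cycles in the same samples. After depletion the mean CT of miR-503 was lower by 1.09 cycles and that of miR-351 by 0.9997. In control replicate 1 (30.96 and 30.97) and depleted replicate 2 (29.98 and 29.99) both lie just under a whole cycle, as do 44.2% of all CT values. In control replicate 2 only that of miR-503 does, and in depleted replicate 1 (29.82 and 29.73) neither does. The part of this in their closeness was not tested. miR-322 minus miR-503 was -1.02, -2.07, -1.79 and -1.92 cycles in the same order. Control replicate 1 stood apart from the other 3 samples. Assays may differ in efficiency, so a difference of CT between assays is not a ratio of molecules.

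**Figure D4:**
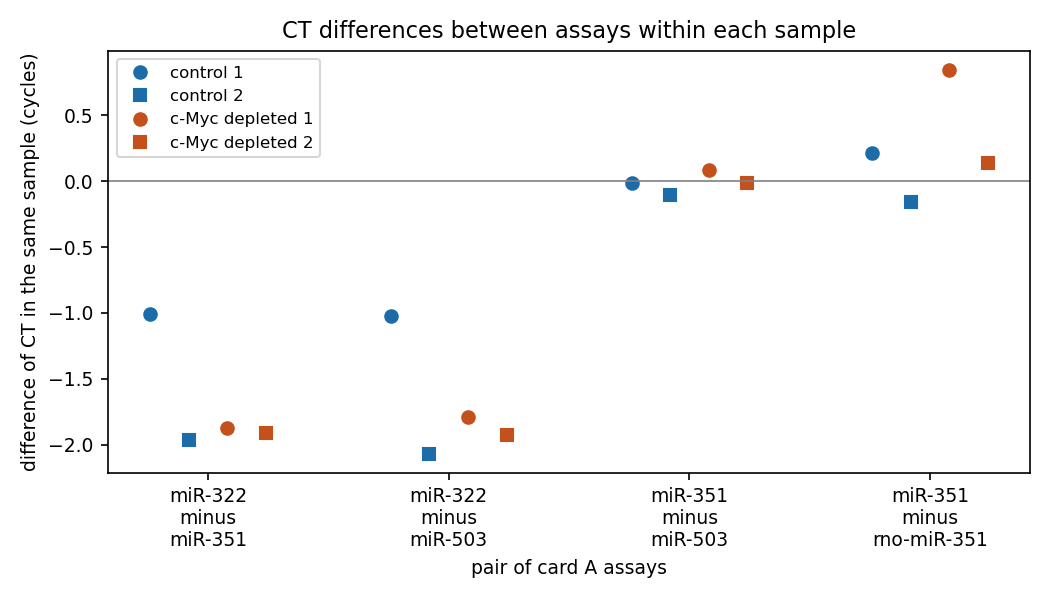
Each point is the CT of one card A assay minus that of another in the same sample, in cycles, with colours and shapes by sample. miR-351 minus miR-503 stays within 0.102 cycles of 0, and miR-322 minus either of them is near -1 in control replicate 1 and between -1.79 and -2.07 in the other samples. The mouse miR-351 assay minus the rat assay rno-miR-351 lies between -0.16 and 0.84.

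Copies per cell follow from CT alone by the formula of the methods, which rests on a standard of another miRNA. miR-322 had 46.4 and 97.9 copies (controls), then 185 and 170 (depleted samples), or 72.1 ± 36.4 and 178 ± 10.5 (SD, n = 2 each). miR-503 had 23.2 ± 0.398 and 49.6 ± 6.22 copies, and miR-351 had 24.2 ± 1.49 and 48.2 ± 3.72 (control and depleted, SD, n = 2 each). The order between miR-503 and miR-351 is not resolved in either group. By mean CT, miR-322 ranked 59, miR-351 101 and miR-503 103 of the 263 detected miRNAs. miR-450a-5p ranked 212 and miR-542-5p 246, and the other 3 members were not below CT 35 in any sample. Thus 5 of the 8 members stood near the ceiling, beyond it or without a CT. In depleted BASCs miR-450a-5p had 6.24 and 2.86 copies, and miR-542-5p had 2.62 in replicate 1 and was above the ceiling in replicate 2.

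The differences of the members were smaller with median centring and with the snoRNA reference than with U6, and larger with no reference. With quantile normalization they were smaller as well, except for miR-542-5p (0.35). With each sample centred on the median of its detected miRNAs on the same card, they were 0.72 for miR-322, 0.41 for miR-503, 0.31 for miR-351 and 0.89 for miR-450a-5p, and -0.26 for miR-542-5p. With snoRNA135 and snoRNA202 as the reference they were 0.96, 0.64, 0.55, 1.12 and -0.02 in the same order. The median of all 263 miRNAs moved from -0.02 with U6 to -0.17 and -0.09 with these, and was 0.37 with no reference, where the members' differences were 1.41, 1.09, 0.9997, 1.57 and 0.43. miR-322, miR-503, miR-351 and miR-450a-5p kept a positive difference under each of the 5 other scalings tried, and miR-542-5p did not. The reference RNAs did not move together: without a reference, snoRNA135 on card A was higher by 1.07 in the depleted samples, U87 by 1.14, Y1 by 0.36 and U6 by 0.15, and snoRNA202 was lower, at -0.17.

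**Figure D5:**
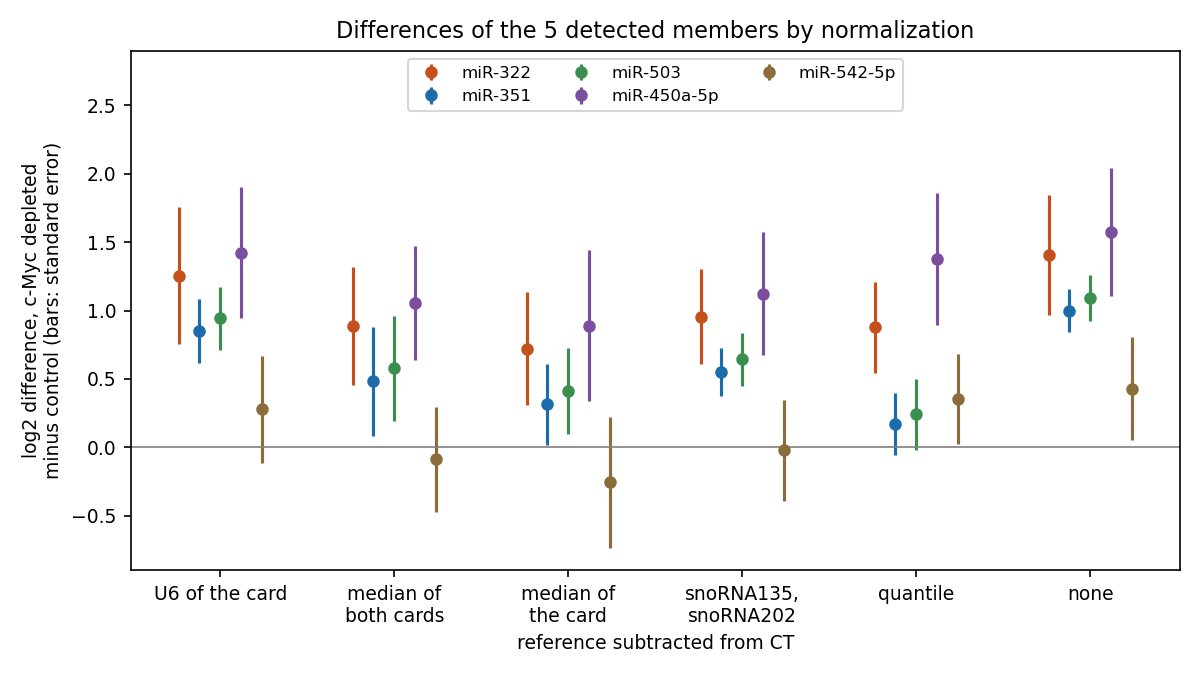
The log2 difference (c-Myc depleted minus control) of the 5 detected members, with standard errors from limma (for miR-322 over the 80 filtered miRNAs, for the others over all 263), is plotted by the reference subtracted from CT. The 4 members other than miR-542-5p are above 0 with each reference, and miR-542-5p lies below 0 with 3 of them.

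The miRNAs of the miR-15/16 group that share the seed with miR-322-5p but lie on other chromosomes were assayed by 5 assays, miR-15a, miR-15b, miR-16, miR-195 and miR-497, all of which were detected. Their median log2 difference was -0.21, 2 of 5 were above 0, and none had an adjusted p below 0.05 in limma over the 263 miRNAs. miR-15a, the highest, had control ΔCT values of 11.1 and 10.5 and depleted ΔCT values of 10.1 and 11.0, a log2 difference of 0.24 with groups that overlapped. miR-497, the lowest at -1.46, had a CT in control replicate 2 alone (32.4). miR-16, named because its level is the highest of this seed, had 3181 ± 392 copies per control cell and 2929 ± 71.2 per depleted cell (SD, n = 2 each), against 72.1 and 178 for miR-322. Of the miRNAs with the seed of miR-351-5p, miR-125a-5p differed by -0.13 (adjusted p = 0.554) and miR-125b-5p rose by 1.10 (adjusted p = 0.0138, both from limma over the 80 miRNAs). Over the 263 miRNAs the adjusted p of miR-125b-5p from limma was 0.113, so that the call was lost. The depleted CT values of miR-125b-5p are deposited with more decimals than its control values, and no CT of a cluster member has over 6 decimals.

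Other miRNA genes of the X chromosome gave 52 assays by the RefSeq names, which matched 332 of the 407 mouse assays without a star. Of these 52, 16 were detected, 15 of them on card A. On card A their median log2 difference was 0.72, and 13 of 15 were above 0. For the 118 detected assays of autosomal genes on the card the median was 0.29, and 74 were above 0. The sets were not matched for level. None of the 16 had an adjusted p below 0.05 in limma over the 263 miRNAs. The miRNAs whose ΔCT pattern over the 4 samples was nearest to a member, by the root mean square difference after centring each on its own mean, were miR-350, miR-532-5p and miR-328 for miR-322 (0.25 to 0.35), miR-532-3p, let-7i and miR-199a-3p for miR-351 (0.03 to 0.05), and miR-376b, miR-222 and miR-362-3p for miR-503 (0.02 to 0.07), out of 258 compared. By the RefSeq names, miR-532-3p, miR-222 and miR-362-3p are products of X chromosome genes, and miR-532-5p, whose name had no match there, is named for the same hairpin as miR-532-3p. miR-351 and miR-503 lay 0.07 from each other, and 5 of the 258 were closer to miR-351 and 2 to miR-503. miR-322 lay 0.39 from miR-351 and 0.40 from miR-503. Of the 258, 61 were closer to miR-351 than miR-322 was, and 55 to miR-503. With 4 samples, many miRNAs share a pattern.

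The cells were checked by miRNAs typical of cell types, and less RNA per cell cannot be told apart from fewer cells of a type. Of 7 epithelial miRNAs, 5 were detected and 1, miR-200c, in all samples, with miR-203 and miR-205 not below CT 35 in any, and their copies summed to 43.3 and 8.51 (controls), then 2.88 and 4.36 (depleted). The 5 assayed fibroblast miRNAs were all detected, with sums of 3344 and 3325 (controls), then 4984 and 4857 (depleted). The labelled cell type is an epithelial stem cell, and the miRNAs of the epithelial list stood near the limit here, while the fibroblast list summed to more copies. Assays may differ in efficiency, so setting the sums of different lists side by side is a description only. The paper stained cultured cells for protein markers of alveolar type II and Clara cells and reports both in most colonies, also after repeated passage. The 2 endothelial miRNAs summed to 106 and 104 (controls), then 28.7 and 26.0 (depleted), the 5 assayed blood miRNAs to between 1.57 and 30.6 in any sample, and the 4 muscle miRNAs (miR-1 and miR-133b not detected) to between 2.33 and 24.2. The larger fibroblast sums of the depleted samples came from miR-199a-3p (log2 difference 0.82) and miR-214 (1.02), while miR-143 stood at 0.04, miR-145 at -0.13 and miR-199a-5p, without a CT in 2 samples, at -0.90, and the median of the list was 0.04. None of the 5 had an adjusted p below 0.05 in limma over the 263 miRNAs, and their part in the differences of the cluster was not tested.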

How the data were processed

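The miRNAs of 4 samples were measured on TaqMan Rodent MicroRNA Array cards A and B. The values deposited by the authors are the threshold cycle (CT) of each well, read with RQ manager software and not normalized. The submitters' processing notes name Partek 6.4, whose use the paper gives for its ΔCT analysis. Groups are those of the sample titles.

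Missing CT values and those over 35 became 35, wells of an assay were averaged, and the mean U6 CT of the card (4 wells) subtracted. limma 3.58.1 in R 4.3.3 (lmFit, eBayes) was fitted to minus ΔCT over the 80 mouse miRNAs with a lowest ΔCT below 10, and over all 263 with a CT below 35 in any sample, with Benjamini-Hochberg adjustment over each. Called means an adjusted p below 0.05. Copies were 10 to the power (40 - CT)/3.34, divided by 22. Python 3.11.15, numpy 2.4.6, pandas 2.3.3 and matplotlib 3.10.9 prepared tables and plots. The fit was tested on simulated data.

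Named miRNAs are all members, the miR-15/16 relatives with the highest and lowest difference, the nearest 3 patterns per member detected in all samples, and lists of cell type markers. Markers that were detected in 1 control alone, miR-16 and the miR-125 pair were added after their values were seen. The members and lists were chosen with earlier results of these data known. Alternatives were other references (median centring over both cards or within a card, snoRNA135 with snoRNA202, quantile, none), other ceilings (none, 32), other ΔCT filters, the lowest CT of the wells, the analysis of variance of the paper, limma with a variance trend, a replicate block and leaving out each sample. Combinations of these with no ΔCT filter, card A alone, a value of 40 for no CT, and the crossed block were added after the data were seen. The paper's mRNA arrays were not used here. The number of samples, 2 per group with 2 residual degrees of freedom per miRNA before pooling, limits the precision.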

Additional observations from a re-analysis of the deposited data

Results flagged for a closer look

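Signals were present in 3 assays of the same hairpins that are not counted among the members. The rat assay rno-miR-351 had a mean CT of 30.1, with control values of 30.74 and 30.99 and depleted values of 28.97 and 29.84, a log2 difference of 1.31 with groups that did not overlap. It differed from the mouse miR-351 assay by 0.14 to 0.84 cycles in the same samples. The other strands miR-322* and miR-503*, on card B, had mean CT values of 31.8 and 31.9. miR-322* had control values of 31.98 and 32.48 and depleted values of 30.99 and 31.79. miR-503* had control values of 31.97 and 32.59 and depleted values of 30.97 and 31.98. Before any reference was subtracted they were higher in the depleted samples by 0.84 and 0.80 on the log2 scale, and with U6 of card B, itself higher there by 0.72, by 0.12 and 0.08 (limma over the 263 miRNAs, adjusted p = 0.828 and 0.893). The plant control assay gave 0 wells with a CT.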

How the results depend on the processing

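The number of members called was 0 with U6 and the ΔCT filter and 0 under all alternatives except that it was 1, miR-322, without control replicate 2 (over the samples left out one at a time, 0 to 1) and with crossed replicate numbers. The median log2 difference of the 5 detected members, 0.94, was 0.58 with median centring, 0.41 with median centring within each card, 0.64 with snoRNA135 and snoRNA202, and 0.35 with quantile normalization, and between 0.68 and 1.08 with 1 sample left out. Under quantile normalization miR-351 and miR-503 stood at 0.17 and 0.24. The number of members detected was 3 in place of 5 with a CT limit of 32. The difference of miR-542-5p turned negative with median centring (-0.089), within each card (-0.26), with the snoRNAs (-0.023) and without depleted replicate 1 (-0.17). For these the cause was not tested. The difference of miR-322 was positive in 18 of 18 alternative fits, and that of miR-351, miR-503 and miR-450a-5p in 15 of 15 each. Fits that changed only the test, the filter or the treatment of high CT values could not turn these signs. Nor could leaving out 1 sample, since the groups did not overlap. Only the other references could have done so, and the counts therefore say little about robustness.

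The replicate numbers are shared by the groups, but nothing says that they pair samples, and the deviations of same-numbered samples had a correlation of -0.44 over the 80 miRNAs. With the replicate block, 0 members and 0 of the 80 miRNAs were called. With the numbers crossed, a choice made after the data were seen, 1 member and 33 miRNAs were called. Over all miRNAs tested, calls numbered 26 with U6 and the ΔCT filter, and 6, 5 and 4 with median centring, median centring within each card and quantile normalization, 17 among the fewer miRNAs with a ΔCT below 10 in all samples, 3 with the analysis of variance, 1 and 0 without depleted replicates 1 and 2, and 2 of the 263 with no ΔCT filter. CT near 35 limits what can be said of miR-450a-5p and both miR-542 arms.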
